A study of Drosophila melanogaster with 12 samples.

Results

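The region described here is a stretch of chromosome arm 3R, chr3R:8968200-10056000 of the dm6 assembly, that spans bands 85C1 to 85F8 of the polytene map. It is 1087.8 kb long and holds 1050 windows, each of 1000 uniquely alignable bases, out of 29106 on 3R and 118985 on the 5 large chromosome arms. The region was chosen by its raw replication timing (rawRT), which was lower in Rif1 mutant salivary glands than in wild-type salivary glands. Values of that comparison are therefore given as a description, without a test. Window coordinates are rounded in the deposited tables, to 100 bp up to the last part of the domain and to 1000 bp there.

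Replication timing (RT) is the order in which parts of the genome are copied during S phase, and late regions are often gene-poor or silent. Rif1 is a conserved regulator of this order that brings protein phosphatase 1 to chromatin, where the phosphatase opposes the kinase that starts replication origins. In the giant polytene cells of the larval salivary gland some late regions are never fully copied, which is called underreplication, and both Rif1 and the chromatin protein SUUR are needed for it. Read coverage in such cells carries timing and copy number at once, so in these data a lower score can stand for later replication or for fewer completed copies.

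The study sequenced genomic DNA of 6 groups with 2 libraries each. Salivary glands came from about 20 female 3rd instar larvae before wandering per genotype, either Rif1 mutant (alleles Rif1 1 over Rif1 2), SuUR mutant (allele SuUR ES) or wild type (Oregon R). Fat bodies came from 25 Oregon R female larvae per replicate at 96 h after egg laying, follicle cells from about 200 ovary pairs of adult Oregon R females kept on wet yeast for 2 days, and wing discs from female 3rd instar yellow white larvae. Both mutant stocks carry a white background that Oregon R lacks, so genotype and strain background cannot be told apart. Salivary gland and fat body profiles were inferred from sequencing coverage with TIGER (Timing Inferred from Genome Replication). Follicle cell and wing disc profiles were made earlier from cells sorted in G1 and S phase (the G1/S method), so tissue and method cannot be told apart in a comparison with them.

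In rawRT units 0 is about the mean of the fully replicated arms and 1 about their SD. Regions copied earlier in S phase have the higher scores. The files hold no read counts, so the depth behind a window is unknown and the error was taken from the libraries. The labels do not say whether libraries of 1 group came from separate preparations, and the methods call those of the salivary gland and fat body biological duplicates. Of the 1050 windows, 1007 had a value in all 12 libraries. Follicle cell and wing disc libraries had none missing, and the others had 7 to 29 missing. Among the windows, 6 were wider than 2 kb, up to 11.4 kb, because they hold little unique sequence, and these had values in 4 libraries only, those of follicle cells and wing discs.

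The genotype labels were checked against the mutated genes and against underreplication. Over the Rif1 gene 2 of 6 windows had a value in each Rif1 library, at mean rawRT of -1.21 and -1.33, whereas all 6 had a value in every other library. Over the SuUR gene all 6 windows had a value in every library, so those windows do not separate the SuUR libraries. In the 1000 windows of each arm next to the centromere the mean rawRT was -0.86 and -1.32 in Rif1, -3.65 and -3.74 in SuUR and -4.96 and -5.49 in wild-type salivary glands.

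By the RefSeq annotation of the same assembly, 190 genes overlap the domain, and 165 protein-coding genes start in it. That is 152 protein-coding starts per Mb, against 104 per Mb in the rest of 3R. Genes cover 91.8% of the domain and 72.8% of 3R. GC content differed little, at 42.9% in the domain and 42.6% on 3R, and 7 annotated mobile elements cover 2.33% of the domain, against 3.56% of 3R.

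The sequences before the gene starts nearest to the 3 highest local maxima of the smoothed wild-type salivary gland profile are printed here to show the bases beside those maxima, of which the highest is 34.4 kb from its nearest start. They lie 5′ of Art4 (an arginine methyltransferase), ps (pasilla, an RNA-binding splicing factor) and CG8516. They were searched for the DNA replication-related element TATCGATA, a palindrome bound by the factor DREF at many promoters of growth and housekeeping genes. None of the 3 held it. Over all protein-coding starts the 200 bases before the start held the element at 13 of 165 genes of the domain (7.88%) and at 230 of 3237 genes of the rest of 3R (7.11%). This count includes exons of other genes in those bases. For mtTFB2, 1 of the 13, the stretch left without such exons has 31 bases and does not hold the element. Ras85D, a Ras family GTPase, and Vps15, a regulatory kinase of autophagy and endosomal sorting, are among the 13 and are shown as examples with the element in capitals; they were chosen after their values were seen. All 5 are from RefSeq (dm6) and are written 5′ to 3′ on the strand of the gene, with annotated exons left out.
Art4, chr3R:9986061-9986260, minus strand: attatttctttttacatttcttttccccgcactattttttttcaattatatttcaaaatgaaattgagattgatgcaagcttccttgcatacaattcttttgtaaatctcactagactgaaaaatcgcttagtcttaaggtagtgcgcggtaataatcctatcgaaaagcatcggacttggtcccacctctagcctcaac
ps, chr3R:9417740-9417939, plus strand: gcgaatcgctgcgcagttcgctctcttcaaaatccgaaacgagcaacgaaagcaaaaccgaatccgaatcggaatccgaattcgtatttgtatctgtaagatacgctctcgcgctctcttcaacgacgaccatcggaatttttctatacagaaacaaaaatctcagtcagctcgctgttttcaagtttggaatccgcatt
CG8516, chr3R:9793099-9793294, plus strand: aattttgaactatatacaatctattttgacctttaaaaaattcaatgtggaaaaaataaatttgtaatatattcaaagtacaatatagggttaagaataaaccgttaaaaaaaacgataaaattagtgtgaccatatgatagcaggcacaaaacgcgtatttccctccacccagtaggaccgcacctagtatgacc
Ras85D, chr3R:9513068-9513267, minus strand: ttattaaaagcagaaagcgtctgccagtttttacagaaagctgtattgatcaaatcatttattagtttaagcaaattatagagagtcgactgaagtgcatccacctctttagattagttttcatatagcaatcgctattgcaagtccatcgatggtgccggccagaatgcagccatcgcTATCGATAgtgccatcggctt
Vps15, chr3R:9245870-9246069, minus strand: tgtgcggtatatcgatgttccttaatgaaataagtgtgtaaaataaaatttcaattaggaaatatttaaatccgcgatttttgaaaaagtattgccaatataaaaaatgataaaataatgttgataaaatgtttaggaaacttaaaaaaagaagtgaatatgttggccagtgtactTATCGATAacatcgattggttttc

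Over the whole domain, Rif1 salivary glands had the lowest rawRT of the 6 groups. The mean over all windows was -0.83 and -0.75 in the Rif1 libraries, against 0.20 and 0.22 in the wild-type salivary gland libraries. Both Rif1 libraries lay far below both wild-type libraries. The group means were -0.79 ± 0.057 in Rif1 and 0.21 ± 0.011 in wild type (SD, n = 2 each), a difference of -1.004 ± 0.058 (SD combined from both groups). Since this difference chose the domain it carries no test, and with 2 libraries a group an exact two-sided permutation test of a single value cannot go below p = 0.333.

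SuUR mutant glands did not share this low level. The SuUR libraries had a mean rawRT of 0.10 and 0.25, which lay below and above the wild-type values, a difference of -0.03 ± 0.104. Fat body libraries had 0.25 and 0.21, which also overlapped the wild-type salivary gland. Wing disc libraries had 0.10 and 0.12, just under it. Follicle cells were the other late group, with -0.23 and -0.39, between the Rif1 and the wild-type salivary gland values and apart from both.

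**Figure D1:**
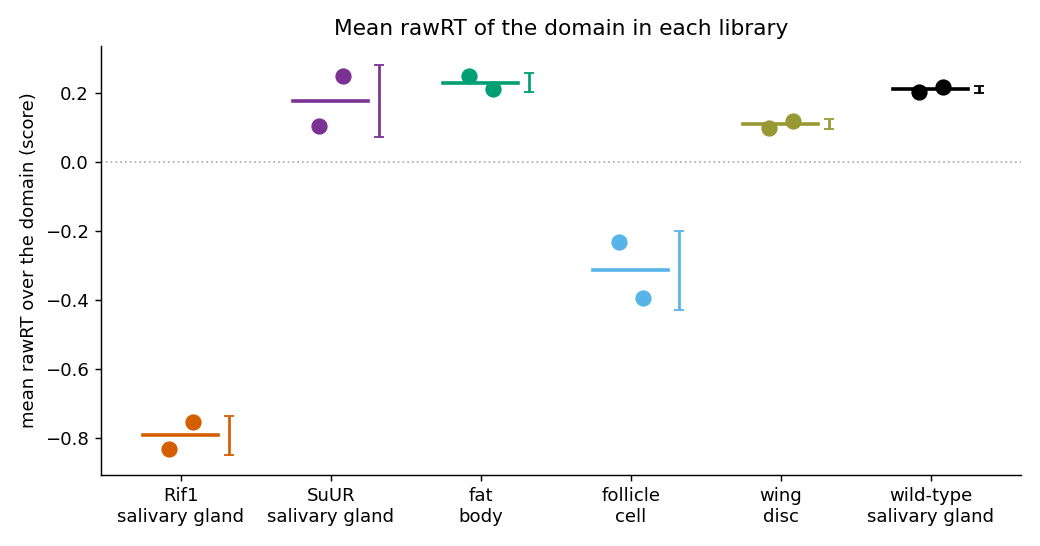
Mean rawRT over the 1050 windows of the domain, in score units, for each library (points), with the mean (line) and SD (bar, n = 2) of each group. The Rif1 libraries sit at -0.83 and -0.75, the follicle cell libraries at -0.23 and -0.39, and the other 8 libraries between 0.10 and 0.25.

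Ranked against all windows of the 5 arms of the same library, the domain moved out of the earliest and into the latest quartile in Rif1 glands. The earliest quartile (Q1) held 5.50% and 7.77% of the domain windows in the Rif1 libraries, against 42.3% and 38.9% in wild-type salivary glands. The latest quartile (Q4) held 53.7% and 47.7% in Rif1, against 10.2% and 7.67% in wild type. These shares come from the values that chose the domain as well. They rest on ranks within each library, which a shift or rescaling of the whole library leaves as they are. The ranks are over all windows of the 5 arms, underreplicated ones included, and the level of those differs between groups. The upper limit of Q4 was -0.75 and -0.81 in Rif1, against -1.20 and -1.19 in wild-type salivary glands. It was -0.72 to -0.61 in follicle cell and wing disc libraries. How far this moves the shares of the domain was not tested.

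SuUR glands had 40.2% and 40.4% of the windows in Q1 and 17.9% and 14.4% in Q4. Their Q1 share was within the wild-type range and their Q4 share was above it in both libraries. Fat bodies had 34.8% and 34.9% in Q1 and 8.25% and 9.51% in Q4. Follicle cells had 17.5% and 13.5% in Q1 and 32% and 39.4% in Q4, the second latest makeup. Wing discs were close to an even spread, with 28.0% and 29.6% in Q1 and 18.2% and 17.9% in Q4.

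The low level in Rif1 glands ran through the whole domain. The windows were grouped into 21 bins of 50 consecutive windows, and in all 21 both Rif1 libraries lay below both wild-type salivary gland libraries. Over all bins that could be measured, 33.4% of 2350 had this order, so it was common on the arms, and since the rule used this contrast nothing is read from the count. The difference of the group means in a bin ranged between -1.30 and -0.62, with a median of -0.99. It was smallest, at -0.62 and -0.72, in the pair of bins that were latest in wild type, and between -1.30 and -1.20 in 7 bins, 6 of them consecutive at chr3R:9268300-9580500 and the other at chr3R:9744600-9794600. In both Rif1 libraries the mean of every bin was below 0, whereas 7 and 5 of the 21 bin means were below 0 in the wild-type libraries.

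The SuUR profile crossed the wild-type profile within the domain. SuUR minus wild type ranged between -0.44 and 0.36 over the bins. In 15 of 21 bins the libraries of the genotypes overlapped, in 4 both SuUR libraries were lower than both wild-type libraries, and in 2 both were higher. Over all 2333 bins measured in both genotypes, 23.4% had the lower and 30.6% the higher order. The lowest bin was chr3R:9330400-9380500, with -0.27 and -0.07 in SuUR and 0.50 and 0.03 in wild type. The highest bin was chr3R:9630500-9680500, with 0.65 and 0.68 in SuUR and 0.28 and 0.34 in wild type.

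**Figure D2:**
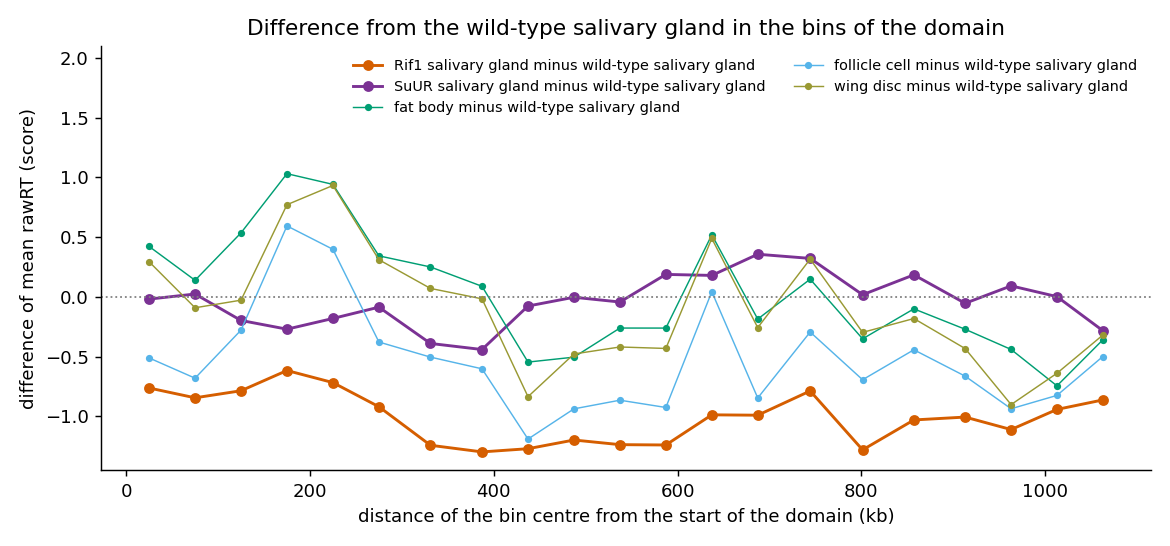
Difference in mean rawRT (score) from the wild-type salivary gland in each of the 21 bins, plotted at the distance of the bin centre from the start of the domain in kb. The Rif1 line stays between -1.30 and -0.62 along the whole domain, the SuUR line between -0.44 and 0.36, and the lines of the other tissues cross 0.

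Rif1 and wild-type glands kept a similar shape of the profile, offset in level. Over the smoothed values of the domain windows Pearson's r between a Rif1 and a wild-type library was 0.855 to 0.933 (4 pairs of libraries), against 0.948 between the Rif1 libraries and 0.945 between the wild-type libraries. For SuUR and wild type it was 0.855 to 0.970. Neighbouring windows are not independent and all profiles share the same bases, so these correlations are descriptions over at most 1050 windows. The smoothed profile spanned 1.45 units in the mean of Rif1, 2.06 in SuUR and 1.80 in wild type.

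The 3 highest local maxima of the mean wild-type salivary gland profile lay 983.5, 448.8 and 824.9 kb from the start of the domain. The first, at a smoothed RT of 0.85 in wild type, was -0.19 in Rif1 and 0.89 in SuUR. It lies in an intron shared by Glut4EF and CG46467, 34.4 kb from the start of Art4, whose upstream sequence is shown above. The maximum 0.94 kb from the start of ps stood at -0.48 in Rif1, 0.67 in SuUR and 0.78 in wild type. The maximum 0.20 kb from the start of CG8516 stood at -0.70 in Rif1, 0.51 in SuUR and 0.41 in wild type. At each of these points Rif1 alone among the salivary gland genotypes was below 0.

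Of the 5 local maxima in the wild-type profile, 4 had a maximum within 25 kb in Rif1, 4 in SuUR, 2 in the fat body, 2 in follicle cells and 0 in wing discs. Of the 5 local minima, 3 had a minimum within 25 kb in Rif1, 4 in SuUR, 3 in the fat body, 1 in follicle cells and 1 in wing discs. Where 1 library had no value, the mean profile was that of the other library alone. At 387.2 kb the wild-type libraries stood at 0.69 and 0.24, and at 392.2 kb only replicate 2 had a value, 0.27. Wild-type minima at 391.7 and 496.8 kb and a maximum at 98.5 kb lay at such windows. So did the Rif1 maximum at 493.8 kb and the SuUR minimum at 496.8 kb. These counts therefore rest in part on missing values. The highest Rif1 maximum lay 996 kb from the start, nearest to Art4 as in wild type.

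The deepest wild-type minimum in the domain lay 205.5 kb from its start, inside pum. This gene encodes Pumilio, a repressor of mRNA translation, and at 171 kb (chr3R:9066343-9237682, minus strand) it is the longest gene of the domain. The bin chr3R:9118200-9168200 had -1.62 and -1.48 in Rif1, -1.47 and -0.95 in SuUR and -1.06 and -0.81 in wild-type glands. The bin chr3R:9168200-9218200 had -1.73 and -1.67 in Rif1, -1.26 and -1.07 in SuUR and -1.15 and -0.82 in wild type. So the trough was present in all 3 salivary gland genotypes and was deepest in Rif1. In these bins fat bodies had means of 0.09 and -0.04, follicle cells of -0.34 and -0.59 and wing discs of -0.17 and -0.05. The lowest minimum of the mean fat body, wing disc and follicle cell profiles lay in pum too, 216.5, 169.5 and 266.5 kb from the start. The smoothed values there were only 0.02, -0.21 and -0.56, against -0.95 at the minimum in wild-type salivary glands. Fat body replicate 2 alone had its lowest smoothed value elsewhere in the domain, at -0.10, against -0.007 in pum 230 kb from the start.

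**Figure D3:**
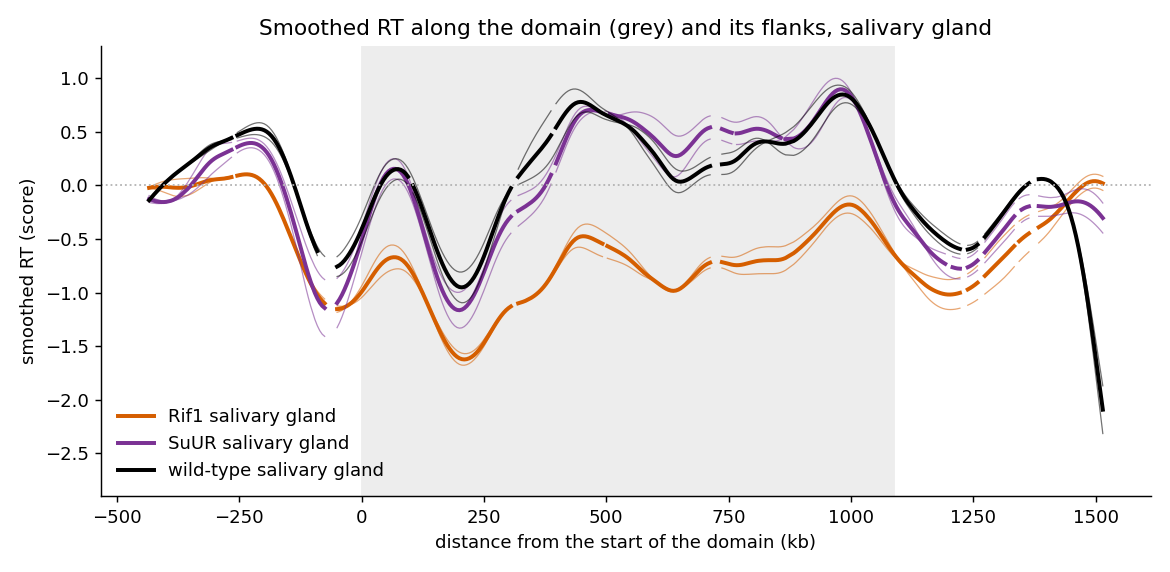
Smoothed RT (score) along the domain, shaded grey, and its flanks, against the distance from the start of the domain in kb, for Rif1, SuUR and wild-type salivary glands (thick lines, mean of 2 libraries; thin lines, single libraries; gaps, windows without a value). Rif1 follows the peaks and troughs of the other genotypes at a lower level, and the trough 205.5 kb from the start is shared.

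In the bins next to the domain the difference between Rif1 and wild type was smaller than just inside it. The rule used this contrast, so nothing is read from the drop at the edges. A bin farther out on the left had -0.34 and -0.53 in Rif1, against 0.30 and 0.27 in wild type, so Rif1 was lower there too. The last bin before the domain had -1.17 and -1.17 in Rif1, against -0.88 and -0.53 in wild type. The first bin inside it had -0.68 and -0.87 in Rif1, against -0.09 and 0.06 in wild type. Rif1 was thus lower on both sides of the edge, by 0.47 outside and by 0.76 inside. At the other end, the last bin of the domain had -0.48 and -0.38 in Rif1 and 0.44 and 0.42 in wild type, and the first bin after it had -0.75 and -0.78 in Rif1 and -0.24 and -0.20 in wild type.

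The left flank is a late valley in salivary glands of every genotype: over the 2 bins before the domain the mean was -1.13 in Rif1, -1.14 in SuUR and -0.80 in wild type. Beyond the right end, at chr3R:10488000-10638000, lies a stretch of very low score in wild-type glands. There rawRT was -0.16 and -0.37 in Rif1 and -0.66 and -0.82 in SuUR, against -2.78 and -3.55 in wild type. There Rif1 was the highest and wild type the lowest, whereas in the domain Rif1 was the lowest. Fat body replicate 2 had no value there.

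Among the genes of the domain, 186 had values in both Rif1 and wild-type glands, and the mean rawRT of 185 was lower in Rif1. The contrast that chose the domain fixes this count, so nothing is read from it. The median difference over the genes was -1.06 for Rif1 and 0.03 for SuUR, both relative to wild type. Genes were measured by all windows they overlap, so neighbouring and nested genes share values. The exception was GstZ1, a glutathione S-transferase with 2 windows, at -1.39 and -0.70 in Rif1 and -1.75 and -0.53 in wild type, where the genotypes overlapped.

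The known developmental genes named for this region stood lower in Rif1, as nearly all genes of the domain did. pum had -1.47 and -1.40 in Rif1, -1.05 and -0.80 in SuUR and -0.81 and -0.63 in wild type. neur (neuralized, a ubiquitin ligase of the Notch pathway) had -0.69 and -1.04 in Rif1, -0.30 and -0.14 in SuUR and -0.36 and 0.11 in wild type. hyd (hyperplastic discs, another ubiquitin ligase) had -0.69 and -1.06 in Rif1, 0.07 and 0.47 in SuUR and -0.21 and 0.02 in wild type. For all 3 the Rif1 libraries lay below the wild-type libraries, while SuUR overlapped wild type for pum and neur and was higher for hyd. Fmr1, listed with them as a known gene of these bands, does not lie in the domain.

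The genes by, Ras85D and betaTub85D were early in wild-type glands. by (blistery, the fly tensin, which links integrins to the cytoskeleton) had -0.56 and 0.39 in Rif1, 0.90 and 1.62 in SuUR and 1.12 and 1.57 in wild type. Ras85D had -0.11 and -0.07 in Rif1, 1.53 and 0.97 in SuUR and 1.41 and 1.25 in wild type. betaTub85D, which encodes a tubulin of the male germline, had the second highest mean of all genes of the domain in wild type, after CG34117, and was chosen after its values were seen. It had 1.90 and 1.39 in Rif1, 2.25 and 2.21 in SuUR and 1.93 and 2.03 in wild type, so both Rif1 libraries were below both wild-type libraries, with replicate 1 of Rif1 only just below, and both SuUR libraries were above them.

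Long genes of the right part gave similar values. Glut4EF, a putative transcription factor gene of 121 kb, had -0.37 and -0.18 in Rif1, 0.90 and 0.67 in SuUR and 0.88 and 0.63 in wild type. CG46467, of 114 kb, shares most of these windows and had -0.28 and -0.13 in Rif1 and 0.93 and 0.70 in wild type. Both genes were early in SuUR and wild-type glands and below 0 in Rif1. Teh1, which encodes an auxiliary subunit of the voltage-gated sodium channel, had -0.82 and -0.75 in Rif1 and 0.32 and -0.04 in wild type. Mical, an enzyme that oxidizes actin downstream of plexin receptors, had -0.35 and -0.36 in Rif1 and 0.45 and 0.51 in wild type.

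ps, the gene next to the second maximum, had -0.97 and -0.44 in Rif1, 0.42 and 0.78 in SuUR and 0.49 and 0.67 in wild type. Art4 had -0.43 and 0.72 in Rif1, 0.88 and 1.02 in SuUR and 0.73 and 0.69 in wild type. Over the 4 windows of Art4 the Rif1 libraries differed widely and 1 of them overlapped wild type. CG8516 had -0.18 and -0.67 in Rif1 and 0.84 and 0.89 in wild type. The genes nearest to the minima were CG11997, nested in pum, with -1.44 and -1.89 in Rif1 and -0.53 and -0.96 in wild type, CG18473 with -0.73 and -0.36 in Rif1 and 0.21 and -0.62 in wild type, and CG9427 with -0.48 and -0.73 in Rif1 and 0.80 and -0.05 in wild type. Only CG18473 overlapped between these genotypes, and its minimum lay at a window where 1 wild-type library had no value.

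The chemoreceptor genes of the domain were 2, and they differed in level. Or85f, an odorant receptor gene, had -0.21 and -0.28 in Rif1, 1.62 and 1.10 in SuUR and 1.61 and 1.27 in wild type. It was among the earliest genes in SuUR and wild-type glands. Gr85a, a gustatory receptor gene, had -0.81 and -0.03 in Rif1, -0.48 and -0.02 in SuUR and -0.13 and 0.66 in wild type. For Gr85a the Rif1 and wild-type libraries overlapped.

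Some gene values rest on few windows or little unique sequence. A window of 10.6 kb lies over eca, CG18542, Unc-115b, p24-2, CG32939 and Unc-115a and had a value in 4 libraries only. eca, a cargo receptor of the secretory pathway, had the second smallest difference between Rif1 and wild type, at -0.04 over 2 windows. Whether the mappability of these genes has a part in their values was not tested.

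Other tissues had a flatter domain. The SD of the smoothed values along the domain was 0.12 and 0.15 in the fat body libraries, 0.12 and 0.18 in follicle cells and 0.14 and 0.14 in wing discs, against 0.55 and 0.40 in wild-type salivary glands. The fat body libraries had little shape in common, with r = 0.054 between their smoothed values and 0.281 over the 21 bin means, whereas the follicle cell libraries had 0.968 and 0.915 and the wing disc libraries 0.834 and 0.722. Relative to wild-type salivary gland libraries r was 0.152 to 0.504 for the fat body, 0.678 to 0.743 for follicle cells and 0.385 to 0.512 for wing discs. Between follicle cell and Rif1 libraries it was 0.696 to 0.822. Over bin means of rawRT the relation to follicle cells was weaker, at 0.416 to 0.665 for wild type and 0.414 to 0.679 for Rif1, and r to wild type was 0.194 to 0.459 for the fat body and 0.287 to 0.398 for wing discs.

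**Figure D4:**
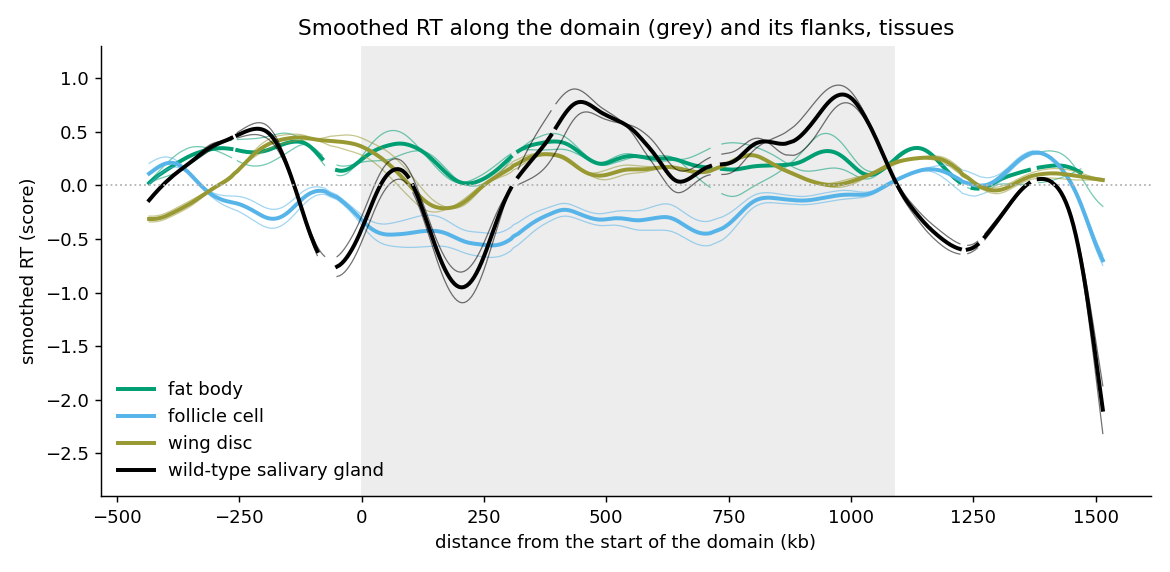
Smoothed RT (score) along the domain, shaded grey, and its flanks, against the distance from the start of the domain in kb, for fat body, follicle cell, wing disc and wild-type salivary gland (thick lines, mean of 2 libraries; thin lines, single libraries). Follicle cells lie below 0 along most of the domain, and the trough of the wild-type salivary gland 205.5 kb from the start is not seen at that depth in the other tissues.

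The follicle cell was later than the wing disc through most of the domain. This comparison uses neither group that chose the domain, and both tissues were profiled with the G1/S method. Follicle cells came from adult Oregon R females and wing discs from yellow white larvae, so tissue, stage and strain cannot be told apart. Bin means of the libraries were compared with limma, with Benjamini-Hochberg adjustment over all bins of the 5 arms. Follicle cells were lower in 17 of 21 bins and higher in 0, whereas 31.6% of all 2378 bins tested were lower. The difference ranged between -0.80 and -0.03, with a median of -0.45 and a median SE of 0.089. It was largest in the first bin, where rawRT was -0.42 and -0.63 in follicle cells, with 0.27 and 0.30 in wing discs (adjusted p = 9.85e-08), and 3 of the 4 bins that did not pass lie at the right end. With both libraries of each tissue in 1 fit of all 6 groups, 5 bins were called, all lower, beside 302 of 2240 over all bins in either direction.

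The follicle cell was also later than the fat body. Fat bodies were higher in 10 of 21 bins and lower in 0, against 6.68% of all 2292 bins tested that were higher. In the first bin fat bodies had 0.50 and 0.32 and follicle cells -0.42 and -0.63, a difference of 0.93 ± 0.134 (SE, adjusted p = 0.0228). In all 21 bins the fat body mean was the higher, by 0.08 to 0.93. The number of calls rests on the follicle cell libraries: with replicate 1 or replicate 2 of these left out 0 bins passed, and over all 2292 bins 10 and 8 did, whereas 650 passed with all libraries. It was 17 without fat body replicate 1 (1214 of 2292 over all bins) and 19 without replicate 2 (1533 of 2378). With 1 library left in a group, that library is assumed to vary like the other group.

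Between fat body and wing disc no bin of the domain passed the test, whereas 21.0% of all 2290 bins did, in either direction. At an unadjusted limma p below 0.05, 2 bins of the domain passed, beside 812 of 2290 over all bins. The methods' one-way analysis over windows called 0 bins of the domain, beside 255 of 2382 over all bins. The differences ranged between -0.17 and 0.56. Without fat body replicate 1 there were 6 calls, 5 higher and 1 lower, beside 1112 of 2290 over all bins. Without replicate 2 there were 5, all higher, beside 1237 of 2376 over all bins. A test that finds no difference at this number of libraries does not show that the tissues were alike.

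SuUR salivary glands were not used to choose the domain and were compared with the same 3 tissues. Their profile is close to that of wild-type glands (r of 0.855 to 0.970 in the domain), which the rule did use. Higher calls in SuUR are therefore not independent of how the domain was chosen. Against follicle cells SuUR was higher in 13 of 21 bins, with 21.0% of all 2355 bins higher, and lower in 2, with 34.1% of all bins lower. The largest difference was at chr3R:9630500-9680500, where SuUR had 0.65 and 0.68 and follicle cells -0.46 and -0.61, a difference of 1.20 ± 0.11 (SE, limma, adjusted p = 0.00178). Both lower bins were those over pum, at -0.86 ± 0.204 and -0.58 ± 0.143 (SE, adjusted p = 0.0191 and 0.022). These lower calls depended on the scale of the scores: 18 higher and 0 lower bins passed after quantile normalization, and 17 higher and 0 lower after median and interquartile range scaling. Over all 2355 bins 1407 and 1304 passed under these settings, in either direction. With either follicle cell library left out most calls in the domain were lost, as were most calls over all bins. The calls left in the domain were all higher.

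Against wing discs SuUR was higher in 7 of 21 bins, with 16.7% of all 2353 bins higher, and lower in 4, with 30.5% of all bins lower. The lower bins were again those over pum, at -1.04 ± 0.191 and -1.11 ± 0.134 (SE, limma, adjusted p = 0.00791 and 0.00226), and the neighbouring pair at chr3R:9268300-9380500. The highest bin, chr3R:9906200-9956200 over Glut4EF, had 1.14 and 0.78 in SuUR and -0.05 and -0.01 in wing discs, a difference of 0.99 ± 0.156 (SE, adjusted p = 0.00516). SuUR thus differed from the wing disc in opposite directions along the domain, and the domain means overlapped. The pair at chr3R:9268300-9380500 is not in the wild-type trough. Its bin means were -0.20 and -0.17 in SuUR, 0.19 and 0.27 in wild-type glands and 0.26 and 0.25 in wing discs. With median and interquartile range scaling 7 higher and 2 lower bins of the domain passed, whereas the calls over all bins rose. Without wing disc replicate 1 or replicate 2 most calls were lost, in the domain and over all bins. No higher call was left in the domain. The difference of domain means was then 0.057 without replicate 1 and 0.077 without replicate 2, against 0.067 with all libraries.

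Against fat bodies, which were profiled by the same method, SuUR was higher in 1 of 21 bins, with 12.2% of all 2268 bins higher, and lower in 3, with 9.48% lower. The lower bins cover most of pum, chr3R:9068200-9218200, with the largest difference of -1.30 ± 0.235 (SE, limma, adjusted p = 0.026). There SuUR had -1.47 and -0.95 and fat bodies -0.00 and 0.19. The higher bin, chr3R:9956200-10006000, had 0.70 and 0.82 in SuUR and -0.02 and 0.05 in fat bodies (difference 0.75 ± 0.166, SE, adjusted p = 0.0374). With any 1 library left out fewer bins passed, in the domain and over all bins. The difference of domain means was then -0.13 to 0.02, against -0.05 with all libraries. With 1 fit of all 6 groups 13 bins passed, 6 higher and 7 lower, beside 1059 of 2240 over all bins. The methods' one-way analysis over windows, which keeps only merged regions above 200 kb, called 4 bins of the domain for fat body against follicle cell. All 4 were higher, beside 348 of 2382 called over all bins in either direction. In each other comparison it called 0 bins of the domain, beside 135 to 564 of 2382 over all bins.

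**Figure D5:**
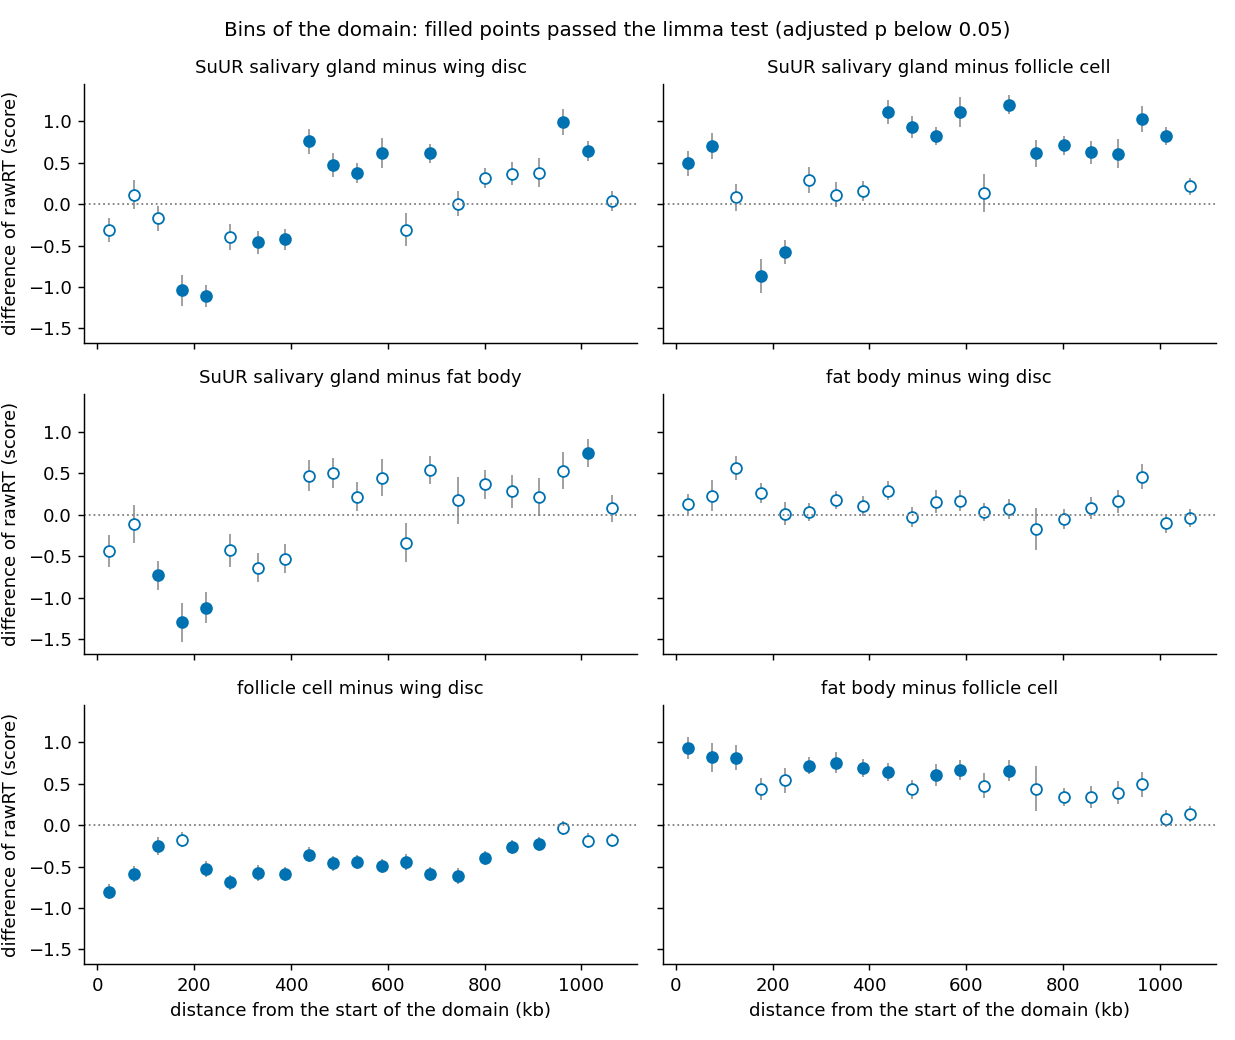
Difference in mean rawRT (score) with its SE in the 21 bins for the 6 tested pairs of groups, against the distance from the start of the domain in kb; filled points have a limma adjusted p below 0.05. SuUR is called lower than each other tissue in 2 bins over pum, which against follicle cells was lost after quantile normalization or interquartile range scaling, and the follicle cell is below the wing disc in 17 filled bins.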

How the data were processed

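Genomic DNA of 12 libraries was analysed, 2 in each of 6 groups that were assigned from the sample labels. The authors mapped reads to the dm6 assembly (BWA mem 0.7.17) and discarded duplicates and ambiguous alignments. Coverage in windows holding 1000 alignable bp was adjusted for GC bias, filtered for outliers and scaled, and the value deposited by the authors, rawRT, is a score. The authors' second deposited table holds the same score after smoothing with a cubic spline. For follicle cells and wing discs the steps are not given in the sources used here beyond the earlier publication. Removal of outlier windows can take out real extremes, and scaling by the arms ties every salivary gland and fat body score to the rest of the genome.

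All windows with both limits inside the domain were used. Bin means of 50 windows with at least 25 values in every library were tested for 6 pairs of groups with limma 3.58.1 (lmFit, eBayes, R 4.3.3) at a Benjamini-Hochberg adjusted p below 0.05 over all bins, and the libraries were the replicates. The rule for named genes took neur, pum, by, hyd and Fmr1, the chemoreceptor and odorant-binding genes, the 5 longest genes and the genes nearest to the 3 highest and 3 lowest local extremes of the wild-type profile. The domain, the lists and the tests were chosen with earlier results of these data known. Alternatives covered bin size, normalization, the fit, the block, the table, the filter, bin medians, the methods' one-way analysis over windows and each replicate left out.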

Additional observations from a re-analysis of the deposited data

How the results depend on the processing

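Shares of the 21 domain bins called are given here in percent. Fat body higher than follicle cell and follicle cell lower than wing disc kept their direction under every setting that gave calls or a value. Rif1 lower than wild type did so too, but the contrast that chose the domain fixed this direction, so nothing is read from it. For SuUR against the wing disc the main share of 52.4% (1111 of 2353 over all bins) became 40.5% with bins of 25 windows (2047 of 4669). In the domain lower calls outnumbered higher ones in that setting. For SuUR against the fat body the share was 19.05% (492 of 2268 over all bins). It became 30.0% with bins of 100 windows (269 of 1139) and 28.6% with quantile normalization (704 of 2268). It was 28.6% with median and interquartile range scaling (806 of 2268) and 61.9% with 1 fit of all groups (1059 of 2240). For fat body against wing disc it was 4.76% with quantile normalization, 9.52% with that scaling, 4.76% with 1 fit, 9.52% with the smoothed table and 4.76% with bin medians, against 0%. For fat body against follicle cell the main share was 47.6% (650 of 2292 over all bins). It was 80.0% with bins of 100 windows (363 of 1145) and 85.7% with that scaling (1060 of 2292). For follicle cell against wing disc it was 23.8% with 1 fit (302 of 2240 over all bins), against 80.95% (1431 of 2378). For SuUR the median difference over all bins was -0.13 against wing discs and -0.15 against follicle cells before quantile normalization, which sets such a shift near 0. The methods' one-way analysis over windows with its length limit gave 19.05% for fat body against follicle cell and 0% for the other pairs of groups.

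With 1 library left out, the share ranged from 4.76% to 71.4% for SuUR against wing disc, from 14.3% to 85.7% for SuUR against follicle cell, from 0% to 9.52% for SuUR against fat body, from 0% to 28.6% for fat body against wing disc, from 57.1% to 85.7% for follicle cell against wing disc and from 0% to 90.5% for fat body against follicle cell. These fits have fewer samples, and the calls over all bins moved as well as those in the domain. The calls over all bins fell to at most 10 of 2292 for fat body against follicle cell without a follicle cell library, and to 0 of 2290 for fat body against wing disc without a wing disc library.

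The difference of domain means between Rif1 and wild type was -1.09 from medians and -1.04 to -0.96 with a library left out. It was -0.75 with median and interquartile range scaling. Values with that scaling are in units of the interquartile range of each library, so their size cannot be set against rawRT differences. For SuUR minus wild type it was -0.11 to 0.039 with a library left out, turning positive without SuUR replicate 1. For fat body minus wild type it was -0.084 from medians, and for wing disc minus wild type -0.20 from medians and -0.13 with that scaling. SuUR minus wing disc was -0.0063 to 0.14 with a library left out, turning negative without SuUR replicate 2. SuUR minus fat body was 0.039 from medians and -0.13 to 0.0198 with a library left out, turning positive without SuUR replicate 1. Apart from the scaling, the cause of these moves was not tested.

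The labels number the libraries of each group 1 and 2, and nothing says what a number shares. Deviations of same-numbered libraries correlated between -0.68 and 0.36 over the pairs of groups. With the replicate number as a block SuUR against fat body fell to 4.76% (0 higher and 1 lower bin), beside 168 of 2268 over all bins. The share moved by less than 1.5 times in the other 5 comparisons. A crossed block was chosen after seeing the data because same-numbered libraries deviated in opposite directions. It gave 2 calls for SuUR against fat body (414 of 2268 over all bins) and 0 for fat body against wing disc (361 of 2290). Depth is unknown, so small differences were judged only by 2 libraries a group.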
